A study of Saccharomyces cerevisiae with 9 samples.

Results

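The genes described here encode enzymes of purine nucleotide and GTP synthesis in budding yeast, and the measurement is where nucleosomes lay on them in WT cells and in cells without Ioc3. The set is a list of 10 genes taken by name: ADE1, ADE2, ADE4, ADE6, ADE8, ADE12, ADE13, ADE17, IMD2 and IMD4. No cut on a measured value was used, but earlier results of these data were known when the list was made. A nucleosome call was assigned to a gene when its WT dyad, the centre of the nucleosome, lay between 60 bp upstream of the start codon and the stop codon. This gave 98 calls on the 10 genes, out of 51917 calls that were paired between WT and ioc3Δ. All 98 had enough signal to enter every comparison, so no member was lost to a filter.

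All strains are of the BY4742 background, a haploid laboratory strain, and were grown in YPD at 30 °C. Ioc3 is the subunit that defines the ISW1a chromatin remodeler. The groups are WT ISW1a, a strain with IOC3 deleted (ioc3Δ) and a strain whose Ioc3 lacks the cHLB part of its HLB domain (ioc3ΔcHLB), with 3 samples each. A FLAG tag is listed in the labels of all strains. Cells were fixed with formaldehyde and the chromatin was digested with micrococcal nuclease (MNase), which cuts the DNA between nucleosomes. The authors merged the samples of each strain before calling nucleosomes. Every value below is therefore the single merged value of a strain, and neither a spread between samples nor a test across samples can be given. The values are averages over many cells, so a nucleosome moved far in some cells and one moved a little in every cell cannot be told apart.

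Purine synthesis builds the ring stepwise on phosphoribosyl pyrophosphate until inosine monophosphate (IMP) is made. IMP is then turned into AMP or, through IMP dehydrogenase, into XMP and GMP, the precursor of GTP. In yeast the ADE genes are known to be activated together, when purines run low, by the transcription factors Bas1 and Pho2, and IMD2 is known for its strong response to falling GTP. ISW1a is known to space nucleosomes over the start of genes and to set how far the array lies from the promoter.

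The letters TGACTC, the core that Bas1 is known to bind and also the core of the Gcn4 site TGACTCA, were searched on both strands in the 400 bp before each start codon. They occurred 12 times, in all 8 ADE genes of the set and in neither IMD gene, whereas 10.3% of 6002 protein-coding genes held them in a window of this length. Below, 1 site per ADE gene is shown in the order of the pathway, because these are the places from which the nucleosome arrays described next are set apart. The sequence is RefSeq R64 (sacCer3), read 5′ to 3′ on the strand of the gene, with the searched letters or their reverse complement GAGTCA in capitals:
ADE4, chrXIII:867431-867460, minus strand: gacccgatgtatTGACTCttcctgaccgaa
ADE8, chrIV:1289009-1289038, minus strand: actcgttgctagTGACTCtgacctgttttt
ADE6, chrVII:616224-616253, minus strand: ttcaaccgttccTGACTCtttcctgctgac
ADE2, chrXV:566327-566356, minus strand: atactaagtgatTGACTCttgctgaccttt
ADE1, chrI:169146-169175, plus strand: cacgagtcagtcTGACTCttgcgagagatg
ADE13, chrXII:844054-844083, plus strand: cctccgcgagcaGAGTCAaacttcaaacaa
ADE17, chrXIII:509440-509469, minus strand: ccagaaatgaatTGACTCctctcataactt
ADE12, chrXIV:234179-234208, plus strand: atccttttcattGAGTCAcagattaacaaa

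These sites lay outside the listed nucleosomes. All 12 were between 110.5 and 294.5 bp from the nearest listed WT dyad, farther than the 73 bp that a nucleosome reaches to each side, and all 12 were also farther than that from any listed ioc3Δ dyad. Over all genes, 65.0% of 695 such sites were that far from a WT dyad. As 95.1% of the deposited calls lie in genes, part of this distance follows from how few promoter calls the tables hold, and a match of letters is not a measurement of Bas1 binding.

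Some facts of the whole series bear on these values. Of 53840 paired rows, 1911 were repeats and 12 lay in the rRNA locus, and both kinds were left out. All WT and ioc3Δ occupancies were whole multiples of 0.138 and 0.199, taken as the worth of 1 sequenced fragment. The 51917 paired calls then had a median of 422 fragments in WT and 252 in ioc3Δ. On the 98 calls the 95% Poisson interval reached a median of 8.80% to each side in WT (range 2.60% to 18.0%) and 11.1% in ioc3Δ (2.24% to 26.0%), which covers counting error only. IOC3 itself (chromosome VI) kept 0.574% of its WT occupancy over its 7 coding calls in ioc3Δ, so the deletion label held. The table labelled ioc3ΔcHLB was not told apart from ioc3Δ by occupancy on these genes. On the purine genes its occupancies and those of ioc3Δ differed by less than sampling noise (spread 0.116 of the counting noise, against 3.19 between WT and ioc3Δ). Both were counted as 1 sample, and the labelled table served only to see how far the calling of a dyad repeats.

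Over the whole length of the purine genes the nucleosomes lay at nearly the same places in both strains. The shift, the ioc3Δ minus the WT dyad counted in the direction of transcription, had a median of 1 bp over the 98 calls (95% interval −1 to 2, binomial, treating calls as independent; quartiles −3 to 6). This was also the median of all genes (1 bp, quartiles −4 to 6). Of the 98 dyads, 52 lay farther downstream in ioc3Δ, 39 farther upstream and 7 were the same. A shift of 10 bp or more downstream was found at 15 calls in 7 genes, 15.3% of the calls, beside a background of 15.5% of calls in all genes. A shift of 10 bp or more upstream was found at 7 calls in 4 genes, 7.14%, beside a background of 13%. The downstream count was at the background, and the upstream count was below it.

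The unequal-variance test named in the study's methods, rebuilt with occupancies in the place of observation numbers and an unadjusted p under 0.01 (two-sided), gave the same picture. It was passed downstream by 12 calls of 6 genes, 12.2%, beside a background of 12.5%, and upstream by 7 calls of 6 genes, 7.14%, beside a background of 9.06%. This test compares merged libraries, not strains. With the number of fragments as observations 27 and 22 calls passed. The share over all calls is not given for that version, so these counts cannot be set against the backgrounds above.

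The place within the gene separated the directions. The +1 nucleosome was taken as the first WT call from 60 bp before to 120 bp after the start codon, and each next position lay 110 to 230 bp farther on. Of the 37 calls from +1 to +4, 29 lay farther downstream in ioc3Δ and 5 farther upstream, with a median shift of 4 bp (95% interval 2 to 6). All 9 of those that had moved by 10 bp or more had moved downstream. In all genes a downstream shift of this size was found at 9.52% of +1, 17.8% of +2, 25.1% of +3 and 23.8% of +4 calls, and an upstream one at 3.11% to 5.27%. Of the 61 later calls, 23 lay downstream and 34 upstream, with 6 and 7 past 10 bp (13.5% and 19.3% of such calls in all genes). Cut by distance, 39 of 55 calls within 900 bp of the start codon lay downstream (70.9%), and 27 of 43 calls past it lay upstream (62.8%). All genes had the same division, with 62.7% of calls downstream within 900 bp and 56.2% upstream past it. The early downstream and late upstream placement is thus shared with the genome.

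**Figure D1:**
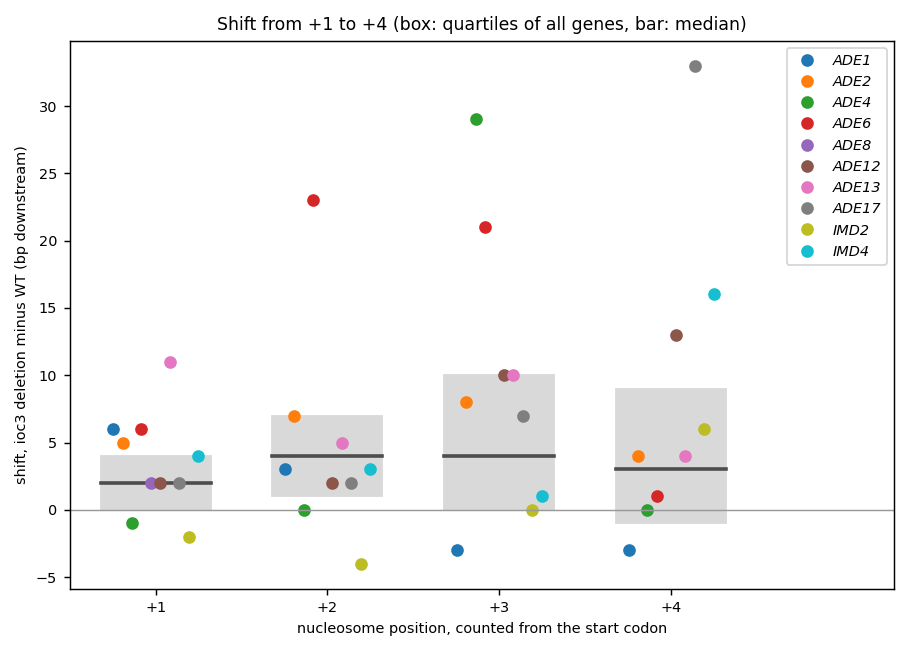
Shift of the dyad in ioc3Δ (bp, downstream positive) at the +1 to +4 nucleosomes of the purine genes, 1 coloured point per gene, over grey boxes for the quartiles of all genes and a bar for their median. Most points sit in or near the boxes, and ADE17 at +4 (33 bp), ADE4 at +3 (29 bp) and ADE6 at +2 and +3 (23 and 21 bp) stand above them.

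By position, the median of the purine genes was 3 bp at +1 (10 genes, against 2 bp over 5852 genes), 3 bp at +2 (9 genes, against 4 bp), 8 bp at +3 (9 genes, against 4 bp) and 4 bp at +4 (9 genes, against 3 bp). At +3 the shift was 10 bp or more in 4 of 9 genes (ADE4, ADE6, ADE12 and ADE13), beside the 25.1% of all genes. At +4 it was so in 3 of 9 (ADE12, ADE17 and IMD4), beside the 23.8% of all genes. ADE8 had no call between 29 bp before and 267 bp after its start codon and so contributes to +1 only.

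The early steps of the pathway held both still and moved nucleosomes. ADE4 (YMR300C, chromosome XIII 865559 to 867091, minus strand) encodes the amidotransferase that opens the pathway. Its +1, +2 and +4 dyads moved by −1, 0 and 0 bp, and its +3 dyad, 310 bp into the coding sequence, by 29 bp. This +3 nucleosome had an occupancy, the dyad density relative to mean genome-wide coverage, of 40.2 in WT and 27.3 in ioc3Δ. The mean of its dyads moved by only 10 bp (SE 2.77, from the spread of its fragments). Farther into ADE4 a single dyad lay upstream by more than 10 bp, at 1171 bp (−13 bp, mean of the dyads −5 bp). ADE8 (YDR408C, chromosome IV 1288215 to 1288859, minus strand), a formyltransferase that acts soon after, is the shortest gene of the set. Its 4 dyads moved by 2, 0, −3 and −3 bp.

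ADE6 (YGR061C, chromosome VII 611889 to 615965, minus strand) encodes formylglycinamidine ribonucleotide synthetase and is the longest member, with 23 calls. Its +1 to +4 dyads moved by 6, 23, 21 and 1 bp, so the called dyads moved most at +2 and +3. The mean of the dyads had also moved at +1, by 15 bp (SE 2.06), and at +4 by 5 bp. At +2 the occupancy was 44.6 in WT and 40.4 in ioc3Δ, and the mean of the dyads moved by 20 bp (SE 2.07). At +3 it was 43.5 and 28.9, the mean moved by 15 bp (SE 2.81), and the SD of the dyads widened from 19.6 to 31.1 bp. The call at 1361 bp moved by 12 bp, but by 1 bp in the table labelled ioc3ΔcHLB. Late in the gene, at 2610, 2798 and 3128 bp, 3 dyads were called 17, 57 and 65 bp upstream, at WT SDs of 35.6 to 37.2 bp, against 26.0 bp for the median of all calls. None of these 3 was upstream by as much in the table labelled ioc3ΔcHLB, where the same WT calls had shifts of 7, −3 and 6 bp.

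ADE2 and ADE1, the carboxylase and the ligase of later steps, had called dyads close to those of WT over most of their length. ADE2 (YOR128C, chromosome XV 564476 to 566191, minus strand), whose loss turns colonies red, moved by 5, 7, 8 and 4 bp at +1 to +4 and by no more than 8 bp at any of its 9 calls. The means of its dyads moved farther at +3 (326 bp), by 18 bp (SE 2.71), and at 1625 bp, by −16 bp (SE 2.28). ADE1 (YAR015W, chromosome I 169375 to 170295, plus strand) moved by 6, 3, −3 and −3 bp. Its last call, 902 bp from the start codon at the very end of the gene, was paired with a dyad 71 bp downstream, near the limit of 73 bp that pairing allowed. It was broad in WT (SD 39.4 bp), lost occupancy from 40.5 to 25.7 and was not paired in the table labelled ioc3ΔcHLB.

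ADE13 and ADE17 act late in the branch to IMP, and called dyads of both lay farther downstream in ioc3Δ over part of the gene. In ADE13 this part ran from +1 to the call at 894 bp, and the calls at 1192 and 1348 bp had shifts of −3 and 0 bp. The means of the ADE13 dyads at 746 and 894 bp moved by −3 and −2 bp. In ADE17 the larger shifts ran from +4 to the call at 1078 bp. ADE13 (YLR359W, chromosome XII 844282 to 845730, plus strand) encodes adenylosuccinate lyase, which also makes AMP. Its +1 to +4 dyads moved by 11, 5, 10 and 4 bp, and it was the only gene of the set with a +1 shift past 10 bp. The +1 nucleosome was sharp in both strains (SD 15.1 and 17.2 bp), with occupancies of 80.8 and 60.6, and the mean of its dyads moved by 10 bp (SE 1.17). In the table labelled ioc3ΔcHLB the same +1 dyad lay 16 bp downstream.

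ADE17 (YMR120C, chromosome XIII 507502 to 509280, minus strand), whose product carries out the last reactions to IMP, had the longest run of moved nucleosomes. From +1 its dyads moved by 2, 2, 7, 33, 33, 25 and 12 bp. Occupancy went from 86.8 to 83.1 at +4 (540 bp) and from 131 to 121 at the next call (711 bp). It went from 111 to 95.6 at 867 bp and fell most at 1078 bp, from 72.3 to 43.4. The means of the dyads moved by 24, 22, 19 and 16 bp over the 4 calls, with SEs of 1.64 to 2.39 bp. The average repeat from +1 to +4 was 172.7 bp in WT and 183 bp in ioc3Δ. The run ended before a gap of 308 bp without a call, and the last call of the gene (1759 bp) was placed 34 bp upstream, in both mutant tables. For these nucleosomes the table labelled ioc3ΔcHLB gave 30, 15, 7 and 7 bp over the run, downstream each time but shorter.

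The 147 bp around the WT dyad of the ADE17 nucleosomes at 540 and 711 bp and of the ADE6 nucleosome at 260 bp are shown in that order, because these moved the most of the nucleosomes that both mutant tables placed downstream by 15 bp or more in a run of neighbours. All are exonic. Letters are 5′ to 3′ on the gene strand (R64), and the capitals run from the WT dyad to the ioc3Δ dyad:
ADE17, chrXIII:508667-508813, minus strand: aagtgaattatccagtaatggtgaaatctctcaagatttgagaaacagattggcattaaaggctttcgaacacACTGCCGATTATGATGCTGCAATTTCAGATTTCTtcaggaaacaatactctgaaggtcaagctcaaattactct
ADE17, chrXIII:508496-508642, minus strand: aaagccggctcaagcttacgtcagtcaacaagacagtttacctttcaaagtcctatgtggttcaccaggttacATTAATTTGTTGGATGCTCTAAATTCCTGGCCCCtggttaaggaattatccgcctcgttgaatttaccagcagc
ADE6, chrVII:615632-615778, minus strand: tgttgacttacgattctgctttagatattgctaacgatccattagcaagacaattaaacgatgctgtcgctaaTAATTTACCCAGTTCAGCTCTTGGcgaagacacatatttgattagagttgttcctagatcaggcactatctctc

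ADE12 (YNL220W, chromosome XIV 234413 to 235714, plus strand), adenylosuccinate synthase, takes IMP into the AMP branch. Its +1 to +4 dyads moved by 2, 2, 10 and 13 bp, with means of the dyads at 3, 2, 15 and 21 bp. The shift thus grew from the start of the gene to +4. Near its 3′ end the calls at 1072 and 1258 bp were placed 14 and 52 bp upstream. The latter was broad (WT SD 35.3 bp), and the table labelled ioc3ΔcHLB placed it 2 bp downstream. For the call at 1072 bp that table gave a shift of 0 bp.

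IMD2 and IMD4 encode IMP dehydrogenase, the entry to GTP synthesis. IMD2 (YHR216W, chromosome VIII 554396 to 555967, plus strand) hardly moved: −2, −4, 0 and 6 bp at +1 to +4, and between −8 and 8 bp at all 9 calls (means of the dyads −11 to 5 bp). IMD4 (YML056C, chromosome XIII 162194 to 164176, minus strand) moved by 4, 3, 1 and 16 bp. The last of these and the call after it (10 bp) lie in its intron (163309 to 163716, 408 bp), which holds the small nucleolar RNA gene SNR54 (163535 to 163620). The intron calls were the least occupied of the gene, 21.1 and 17.3 in WT and 16.1 and 12.2 in ioc3Δ. The other members have a single coding exon.

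**Figure D2:**
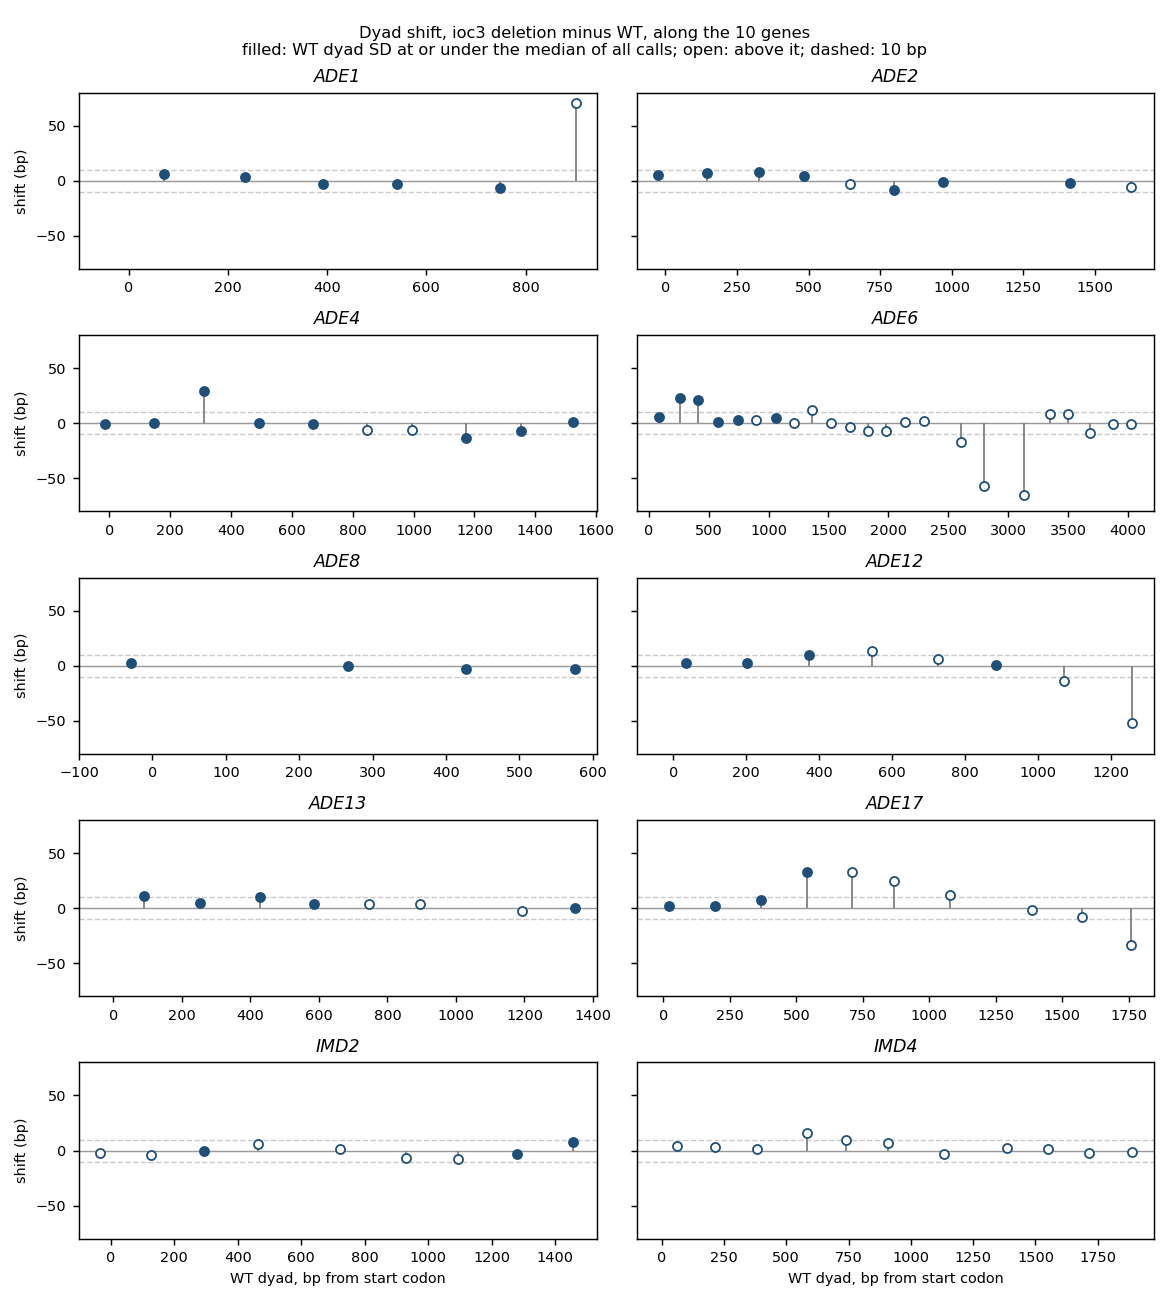
Shift of each call in ioc3Δ (bp, downstream positive) against the distance of its WT dyad from the start codon (bp), 1 panel per gene, with dashed lines at 10 bp. Filled points are calls with a WT dyad SD at or under the median of all calls and open points broader ones; the ADE17 run from 540 to 1078 bp and the early ADE6 and ADE4 calls rise above the line, while upstream calls past 10 bp lie late in ADE6, ADE12 and ADE17.

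The moved calls differed in sharpness by direction. The 15 downstream calls had a median WT SD of 26.8 bp and a median distance of 545 bp from the start codon, and the means of their dyads had all moved by at least 10 bp. The 7 upstream calls had a median WT SD of 35.3 bp at a median distance of 1759 bp, and 5 of the 7 means had moved by that much. Among the 46 calls that were sharp in WT (SD at or under 26.0 bp), 7 moved downstream and 1 upstream by 10 bp or more. The same division is seen over all genes, where 12.6% of sharp calls moved downstream and 6.0% upstream, and 18.3% and 19.9% of broad ones.

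The table labelled ioc3ΔcHLB held 96 of the 98 calls with the same WT values. With occupancies so near those of ioc3Δ it is no independent repeat, and only the calling of dyads could be compared. For the 46 sharp calls the mutant dyads of both tables were 2 bp apart in the median and at most 9 bp apart. For the 50 broad calls they were 3 bp apart in the median but up to 71 bp, and 14 of the 50 differed by 10 bp or more. Shifts of 10 bp or more at broad calls are therefore less certain than those at sharp ones. The agreement at sharp calls does not measure how they would repeat between samples. Of the 7 dyads that differed by over 20 bp, 5 were in ADE6 between 2610 and 3499 bp, 1 was the ADE12 call at 1258 bp and 1 was the IMD4 call at 585 bp (16 and 38 bp). Among the 7 upstream shifts, ADE6 at 2610 and 3128 bp (7 and 6 bp) and ADE12 at 1258 bp (2 bp) had the opposite sign in the labelled table.

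**Figure D3:**
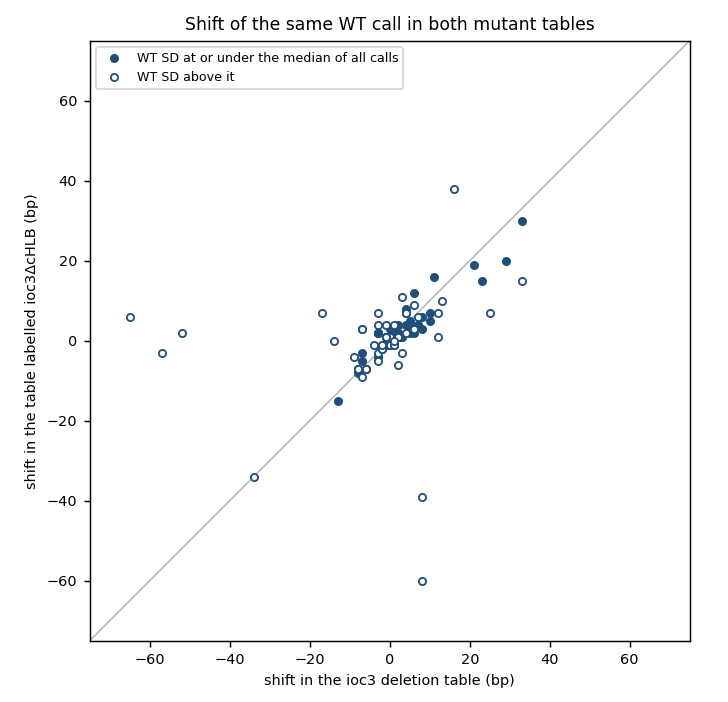
Shift of the same WT call in the ioc3Δ table (horizontal, bp) and in the table labelled ioc3ΔcHLB (vertical, bp) for the 96 calls in both, with the line of equality. Filled points, sharp in WT, keep within 9 bp of each other in both tables, while open points, broad in WT, include the 7 calls more than 20 bp apart.

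The distance from +1 to +2 did not grow in the purine genes as a set. Its median was 165 bp in WT and 161 bp in ioc3Δ over 9 genes, with a median difference of 0 bp (quartiles −2 to 1). It was longer in 3 genes, of which ADE6 was the clear case (171 to 188 bp), shorter in 4 and equal in 2. Over 5463 genes it went from 167 to 169 bp, with a median difference of 2 bp. The average repeat from +1 to +4 differed by a median of 0.333 bp in the 9 genes and in all genes alike, and ADE17 (10.3 bp longer) and IMD4 (4 bp longer) had the longest gains of the set.

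Nucleosomes were placed more broadly in ioc3Δ, as over the whole genome. Over the 98 calls the median SD of the dyads was 26.9 bp for WT and 29.0 bp for ioc3Δ. It was higher in ioc3Δ at 77 of them (78.6%), with a median difference of 1.86 bp (95% interval 1.01 to 2.58). Over all genes 77.3% of calls were broader, by a median of 2.39 bp. At +1 and +2 every purine gene with a call was broader in ioc3Δ, 10 of 10 and 9 of 9. In all genes 82.4% of +1 and 86.6% of +2 calls were broader. ADE8, ADE1 and ADE4 had the sharpest arrays in WT (median SDs of 17.9, 21.3 and 23.1 bp) and IMD4 and ADE6 the broadest (36.1 and 34.2 bp).

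Which way occupancy changed depended on the scaling. Ratios of ioc3Δ to WT were divided by the median over all calls, 0.892, and the gains so found were mostly at calls rich in G and C. The scaled ratio had a median of 0.990 over the 98 calls (95% interval 0.950 to 1.06), against 1.01 in all genes. It passed 1.5 at 9 calls of 6 genes, 9.18%, beside a background of 11.8%, and fell under 1/1.5 at none, beside a background of 8.96%. Neither count stands above its background. With no scaling there were 9 ratios above 1.5 and 8 under 1/1.5 (7.08% and 16.1% of calls in all genes). With scaling by the ratio of summed occupancies there were 3 and 25 (2.94% and 32.8%).

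The gains were at nucleosomes that hardly moved, and 7 of the 9 were already above the WT median of all calls (58.3). ADE2 held the largest, at 1414 bp, where occupancy was 790 in WT and 1528 in ioc3Δ, a scaled ratio of 2.17. The other calls of ADE2 lay between 25.5 and 84.5 in WT. ADE1 at 540 bp had 329 and 588 (2.00). ADE8 had high values at 267 bp, 460 and 807 (1.97), and at 427 bp, 784 and 1355 (1.94). Its last call, at 575 bp, also passed, with 46.0 and 73.5 (1.79). IMD2 at 930 bp had 757 and 1195 (1.77). The remaining gains were smaller in level: ADE6 at 1060 bp (104 and 184, 2.00) and at 1522 bp (54.8 and 90.1, 1.84), and IMD4 at 1550 bp (147 and 248, 1.90). The largest shift among the 9 was 7 bp. ADE8 was the only gene whose median ratio stood far from 1 (1.87), and the medians of the other 9 genes lay between 0.914 and 1.17.

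**Figure D4:**
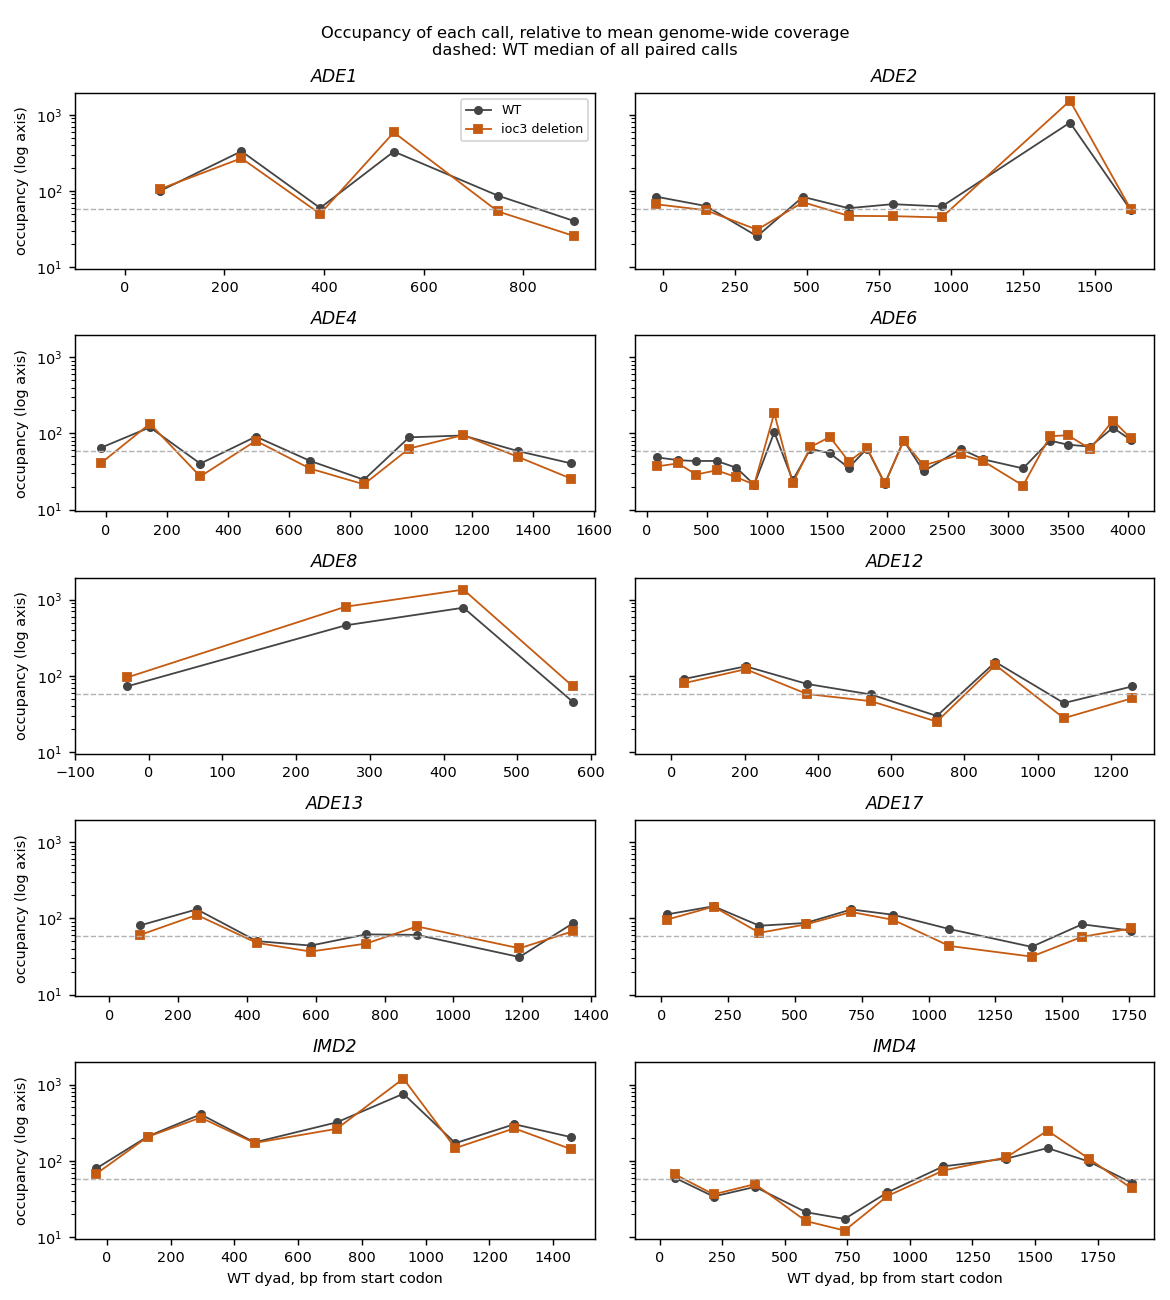
Occupancy of each call (dyad density relative to mean genome-wide coverage, log axis) in WT (grey circles) and ioc3Δ (orange squares) against the distance of the WT dyad from the start codon (bp), 1 panel per gene, with the WT median of all calls dashed. Single tall calls stand out in ADE2 (790 and 1528), ADE8 (784 and 1355), IMD2 (757 and 1195) and ADE1 (329 and 588), and the lines run close together elsewhere.

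The G+C content of the 147 bp around the dyad went with the ratio. The 9 calls had 42.9% to 52.4% G+C (median 49.7%), and the 89 others 29.9% to 47.6% (median 40.8%). All 8 purine calls with 48% or more were past 1.5, as were 71.4% of the 3607 such calls in the genome, whose median ratio was 1.72. Spearman's rho between ratio and G+C was 0.526 over the 98 calls and 0.639 over all 51917, which share the libraries and are no replicates. When each ratio was divided by the median of calls of like G+C, a scaling chosen after the data were seen, the 9 calls fell to between 1.06 and 1.59, and 1 of them (ADE8 at 575 bp) stayed above 1.5. The part of base composition in these gains, through digestion or amplification of the libraries, was not tested.

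For comparison, the 147 bp of the ADE2 call at 1414 bp and the ADE8 call at 427 bp (both gains) and of the ADE2 call at 968 bp (62.7 in WT, 45.0 in ioc3Δ, scaled ratio 0.806) are given in that order, with every G and C in capitals. They number 73, 77 and 59. All are exonic, 5′ to 3′ on the gene strand (R64):
ADE2, chrXV:564704-564850, minus strand: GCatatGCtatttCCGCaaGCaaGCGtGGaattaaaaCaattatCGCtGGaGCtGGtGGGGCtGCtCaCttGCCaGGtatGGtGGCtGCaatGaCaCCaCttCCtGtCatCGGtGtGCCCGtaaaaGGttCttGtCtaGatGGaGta
ADE8, chrIV:1288359-1288505, minus strand: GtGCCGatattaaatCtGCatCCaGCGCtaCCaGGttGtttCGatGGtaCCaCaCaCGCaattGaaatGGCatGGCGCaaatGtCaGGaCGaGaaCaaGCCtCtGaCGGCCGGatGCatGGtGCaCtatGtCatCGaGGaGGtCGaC
ADE2, chrXV:565150-565296, minus strand: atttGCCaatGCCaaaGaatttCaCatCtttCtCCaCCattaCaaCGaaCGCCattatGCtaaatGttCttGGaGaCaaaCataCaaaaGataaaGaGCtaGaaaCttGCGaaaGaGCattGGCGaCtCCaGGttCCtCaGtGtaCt

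**Figure D5:**
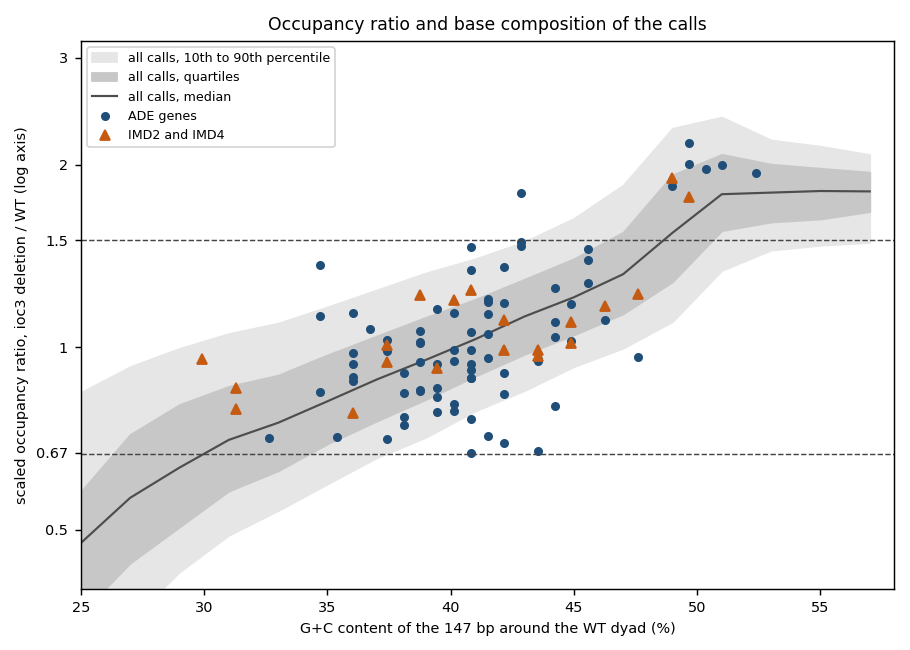
Scaled occupancy ratio of ioc3Δ to WT (log axis) against the G+C content of the 147 bp around the WT dyad (%), for the ADE calls (blue circles) and the IMD2 and IMD4 calls (orange triangles), over bands for the quartiles and the 10th to 90th percentile of all calls. The purine calls follow the rising median of all calls, and 8 of the 9 above 1.5 have 48% or more G+C.

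Reads of the IMD genes may be shared with near-identical copies, so their levels are less certain than those of the ADE genes. IMD2 was 88.9% identical to IMD3 in coding sequence and 79.2% to IMD4. Of the 50-bp words of IMD2, 29.1% also occurred on chromosome I (227854 to 229274) and 8.01% in IMD3. IMD4 was 82.1% identical to IMD3 in coding sequence, with a longest identical run of 139 bp. No call of the set had an exact second copy of its whole 147 bp. WT occupancy of IMD2 was high, with a median of 208 over 9 calls against 58.3 over all calls, while the 6 calls of the chromosome I copy had a median of 11.6. ADE17 and its paralog ADE16 were 74.7% identical, with no identical run longer than 19 bp. Without IMD2 and IMD4, 13 downstream and 7 upstream shifts and 7 gains remained among 78 calls.

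Other genes of purine metabolism were counted from a list of 26 with 200 calls. They had 32 downstream (16%) and 28 upstream shifts (14%) of 10 bp or more, and 26 ratios above 1.5 (13%) and 10 under 1/1.5 (5%), so they too lay near the background shares given above. The median shift of a gene was downstream in 16, upstream in 7 and 0 in 3. The largest was that of MTD1, a methylenetetrahydrofolate dehydrogenase that serves one-carbon supply, with 12 bp over 6 calls that all moved downstream (3 to 17 bp). BAS1, the activator named above, had −6 bp over 15 calls, with 3 upstream and no downstream shift past 10 bp. PRS1, a phosphoribosyl pyrophosphate synthetase, had −5 bp, and GUD1, guanine deaminase, 5 bp. IMD3, the paralog of the IMD members, had −3 bp and a median ratio of 1.05.

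In occupancy, the highest median ratios of that list were 1.54 for ADK1 (adenylate kinase, 4 calls) and 1.37 for ADE3 (which interconverts tetrahydrofolates, 13 calls). The ADE3 calls had a median G+C of 46.9%, and its ratio was 1.05 against calls of like G+C. The lowest were 0.864 for AAH1 (adenine deaminase) and 0.892 for GUK1 (guanylate kinase). The 5 genes listed under AMP and GMP synthesis, with ADE3 counted among them, held 14 of the 26 high ratios in 52 calls, where the background is 11.8%. By gene these were ADE3 (6), ADE5,7 (4), GUA1 (3), ADE16 (1) and IMD3 (0), so the folate enzyme ADE3 held the most. Their calls were rich in G+C, with gene medians of 42.2% (GUA1) to 46.9% (ADE3) against 39.5% over all calls, and the part of this in the count was not tested. Of the downstream shifts, the 11 salvage and interconversion genes held 11 of 32, in 66 of the 200 calls. The background is 15.5% of calls in all genes, so this count was near it.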

How the data were processed

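Per the labels and the methods of the study, mononucleosomal DNA of 3 samples per strain was paired-end sequenced and mapped to sacCer3 with Bowtie version 2.0 (given as Bowtie2 in the submitters' processing notes). The authors used read-pair centres as dyads, merged the samples of a strain, and called nucleosomes in the deposited tables. The occupancy was deposited as a signal, the dyad density relative to mean genome-wide coverage. The SD of the dyads was deposited as a score in bp, beside the called and mean dyad positions. WT and mutant rows were paired with an overlap of at least 73 bp.

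Calls between 451275 and 469084 of chromosome XII (the rRNA locus) and repeats of a row were removed. Genes came from RefSeq R64, whose gene models are largely coding sequence; their chromosome lengths match the files. Calls were made by size (10 bp; 1.5-fold), or by the test of the methods, rebuilt here because its formula is not given, for occupancies of at least 2. The paired calls used held 43911516 fragments in WT and 35955477 in ioc3Δ, if 1 step of the occupancy is 1 fragment. Fragments outside these calls are not counted. Members and lists were chosen with earlier results of these data known. Named were all members with their +1 to +4 calls and calls past either size, and from the list of 26 genes those with the largest shifts (with a tie) and the highest and lowest ratios. Alternatives covered the dyad column, filters, overlap, scaling and tables. The rebuilt test was run on simulated shifts drawn with its own error formula. This checks the code only, and not whether occupancy is a fit number of observations. The tools were Biopython 1.88, matplotlib 3.10.9, scipy 1.17.1, pandas 2.3.3 and numpy 2.4.6 under Python 3.11.15.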

Additional observations from a re-analysis of the deposited data

How the results depend on the processing

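The median shift of 1 bp stayed at 1 or 2 bp with the mean dyads, with occupancies of at least 20, with a stricter overlap, in sharp calls, with repeated rows, without IMD2 and IMD4 and in the table labelled ioc3ΔcHLB, and was 4 bp in calls from +1 to +4 (chosen after seeing the data). The 15 downstream shifts became 29 at 5 bp, 8 at 15 bp and 7 in calls with a WT SD at or under the median. The 7 upstream shifts became 19 at 5 bp, 4 with an overlap of 110 bp, 1 in calls with a WT SD at or under the median and 4 in the labelled table. Of calls with such an SD, 15.2% here moved downstream and 2.17% upstream by 10 bp or more, beside 12.6% and 6.0% in all genes. For the other settings no share over all genes is given, so those counts cannot be set against a background. The test of the methods gave 27 downstream and 22 upstream calls with fragments as observations, in place of 12 and 7. For that version no share over all calls is given. The median scaled ratio of 0.990 became 0.882 with no scaling and 0.747 with scaling by the ratio of summed occupancies, which also left 3 gains in place of 9. The count of losses, 0, became 8 with no scaling, 25 with the ratio of sums, 1 in the labelled table and 3 with scaling by like G+C. Over calls in all genes the first 2 of these scalings put 16.1% and 32.8% that low, more than their share of the 98. Under the G+C scaling 2 calls were gains, ADE8 at 575 bp and ADE2 at 326 bp, and only the former was among the 9. That scaling made 6.22% of calls in all genes gains and 3.92% losses. The causes were not tested, beyond the fewer calls that a filter leaves. Single calls in the labelled table took the opposite sign for ADE6 at 2610 bp (7 bp), ADE6 at 3128 bp (6 bp) and ADE12 at 1258 bp (2 bp). The merged tables limit the report: leaving out single samples could not be done. No paired analysis was possible because each strain has 1 merged table.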

Other observations

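The table labelled ioc3ΔcHLB, with its own pairing to WT, held 100 calls on the purine genes, 4 of which were not paired in the ioc3Δ table. They were ADE6 at 2449 bp (shift 20 bp) and 2980 bp (−6 bp), ADE17 at 1238 bp (−2 bp) and ADE8 at 119 bp (2 bp). The ADE8 call, with occupancies of 34.7 in WT and 40.5 in the labelled table, fills the gap between the +1 call and the call at 267 bp. The ADE17 call fell from 40.2 to 20.2 and lies in the 308 bp gap that ends the run of moved nucleosomes. Conversely, ADE1 at 902 bp and IMD4 at 739 bp were paired in the ioc3Δ table only.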
